A study of Mus musculus with 8 samples.

Results

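The genes described here carry interleukin 6 and gp130 signalling: the ligands Il6, Lif and Osm, the receptor chains Il6ra, Lifr, Osmr and Il11ra1, the shared receptor chain gp130 (gene Il6st), the transcription factor Stat3 and the feedback inhibitor Socs3. They were read from all probe sets annotated to one of these 10 genes and to no other gene, which gave 23 of the 45101 probe sets on the array and covered 9 of the 10 genes. Il11ra1 has no such probe set and is not analysed here. Gene expression was measured in ankle joints of mice at 5 months of age on 8 single-colour Affymetrix arrays in 3 groups. Of these, 3 arrays came from mice with a human TNF transgene that are labelled functionally null for sphingosine kinase 1 (labelled Sphk1 null), 3 from mice with the transgene and normal sphingosine kinase 1 (hTNF), and 2 from wild-type mice with normal sphingosine kinase 1. Both transgenic groups carry the human TNF transgene; the labels do not state its promoter, the strain or the sex of the animals. The labels speak of the ankle joint of a mouse but state neither the number of mice per array nor litter or preparation. The p-values therefore speak only for the scatter among these 8 arrays, some of which may be technical.

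Cytokines of the interleukin 6 family share gp130 as their signalling chain. Interleukin 6 first binds its own receptor, leukaemia inhibitory factor joins gp130 to Lifr, and mouse oncostatin M joins gp130 mainly to Osmr. The receptor-bound JAK kinases then phosphorylate STAT3, which enters the nucleus and switches on genes that include Socs3, and the SOCS3 protein binds gp130 and shuts the signal down. In joints, synovial fibroblasts and macrophages are known sources of interleukin 6, and in human arthritis the cytokine and its receptor are drug targets.

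Each value below is the deposited log2 expression level of a probe set, and a difference is a difference of group means on that scale. A probe set entered the limma test on all 8 arrays when 2 or more arrays read over 6.87, the median of all deposited values, and "rose" or "fell" is used for a Benjamini-Hochberg adjusted p under 0.05 over all 24115 tested probe sets. A gene is given by its brightest tested probe set. Of the 23 member probe sets, 19 passed this filter, and they represent 8 genes. The only probe set of Il6 was too dim and was tested in a fit without the filter. The members and all gene lists were chosen with earlier results of these data known. Shares of a list set beside all genes therefore describe the list and are not a test of it.

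Some arrays stood apart from their group. The probe set that reads the targeted gene above the filter, 1451596_a_at of Sphk1, was at 9.94 to 10.22 in the arrays labelled Sphk1 null, 8.28 to 8.65 in hTNF and 7.16 to 7.25 in wild type. The other, 1420566_at, lay below the filter at 6.12 to 6.74 on all arrays. Sphk1 RNA was thus not lower where the label speaks of a functional null. The label speaks of function and not of RNA, so these values cannot check it. Every direction that rests on the label carries that limit. Replicate 1 labelled Sphk1 null, hTNF replicate 1 and wild-type replicate 2 held signal of both Xist, at 11.19 to 13.09, and Y-linked Eif2s3y, at 6.6 to 9.14. Xist was at 12.89 to 13.16 and Eif2s3y at 3.46 to 3.81 in replicates 2 and 3 labelled Sphk1 null and hTNF replicate 3. In hTNF replicate 2 and wild-type replicate 1, Xist was at 7.29 and 7.45 and Eif2s3y at 8.75 and 8.86. Sex-linked signal was thus not balanced between the groups. Leaving out the arrays of mixed signal keeps wild-type replicate 1 alone in its group. The mean of 8 keratinocyte markers spanned 7.18 to 10.71 in the arrays labelled Sphk1 null, 7.02 to 12.07 in hTNF and 7.84 to 8.89 in wild type. The mean of 8 neutrophil markers was 10.08 to 11.64 in the arrays labelled Sphk1 null and 9.85 to 10.84 in hTNF, while the wild-type replicates lay apart at 8.25 and 11.42. Joint tissue markers were present: the cartilage mean was 10.01 to 10.11 in the arrays labelled Sphk1 null, 10.17 to 10.45 in hTNF and 11.27 to 11.60 in wild type, and the fibroblast mean was 12.82 to 12.86, 12.73 to 12.81 and 12.33 to 12.40 in the same groups.

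**Figure D1:**
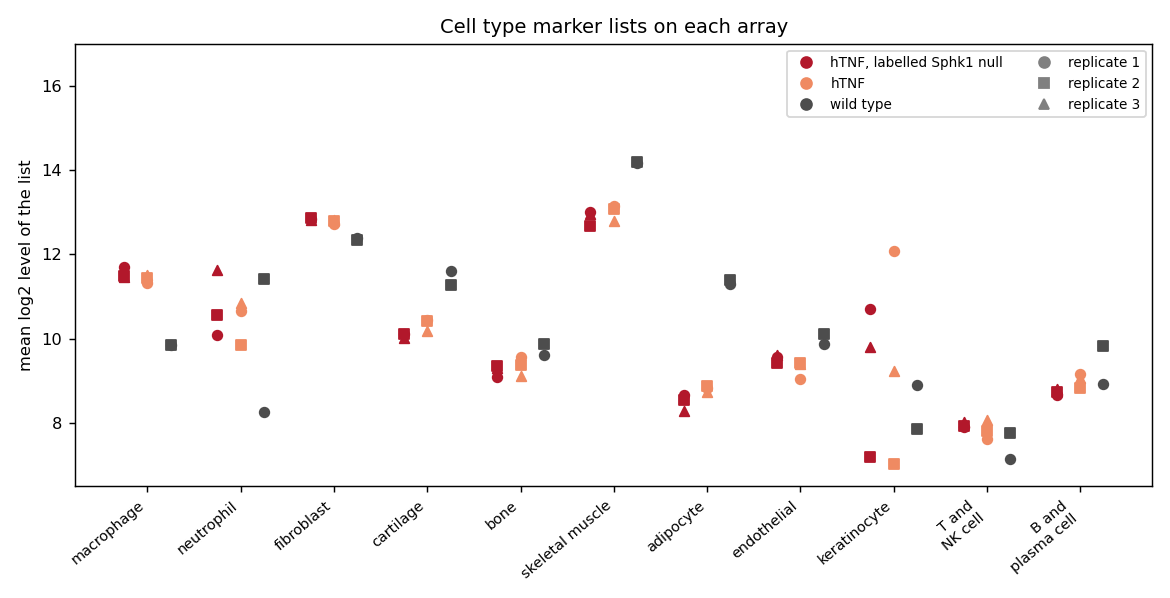
Mean log2 level of each cell type marker list (vertical axis) on each array, coloured by group, with a symbol for the replicate number. Macrophage markers lie higher and adipocyte and muscle markers lower on all 6 transgenic arrays than on both wild-type arrays, while keratinocyte and neutrophil markers spread widely within groups.

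In hTNF joints the feedback inhibitor Socs3, the ligands Lif and Osm and the receptor chains Il6ra and Osmr rose against wild type, by 1.52 to 2.44 times on the linear scale, and no member fell. That is 5 of the 8 tested member genes, where 36.1% of all 12362 tested genes were called, 16.5% higher and 19.6% lower. By probe set, 9 of 19 rose, where 33% of all tested probe sets were called and 16.6% called higher. For 6 of the 8 genes all hTNF arrays lay above both wild-type arrays, against 28.7% of all genes. The brightest probe sets of the shared chain Il6st, of Lifr and of Stat3 did not pass. Member genes had a median difference of 0.74 log2, against -0.02 over all tested genes. Macrophage markers moved the same way: 8 of 10 rose, and their mean level was 11.31 to 11.52 in hTNF and 9.85 on both wild-type arrays. Of the fibroblast markers 5 of 9 rose and 1 fell. Markers of other cell types fell in hTNF joints: 5 of 5 of adipocytes, 6 of 6 of endothelium, 7 of 8 of skeletal muscle, 4 of 6 of cartilage and 2 of 5 of bone. In whole joints, more cells of a type and more RNA per cell cannot be told apart, and the part of cell content in these differences was not tested.

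**Figure D2:**
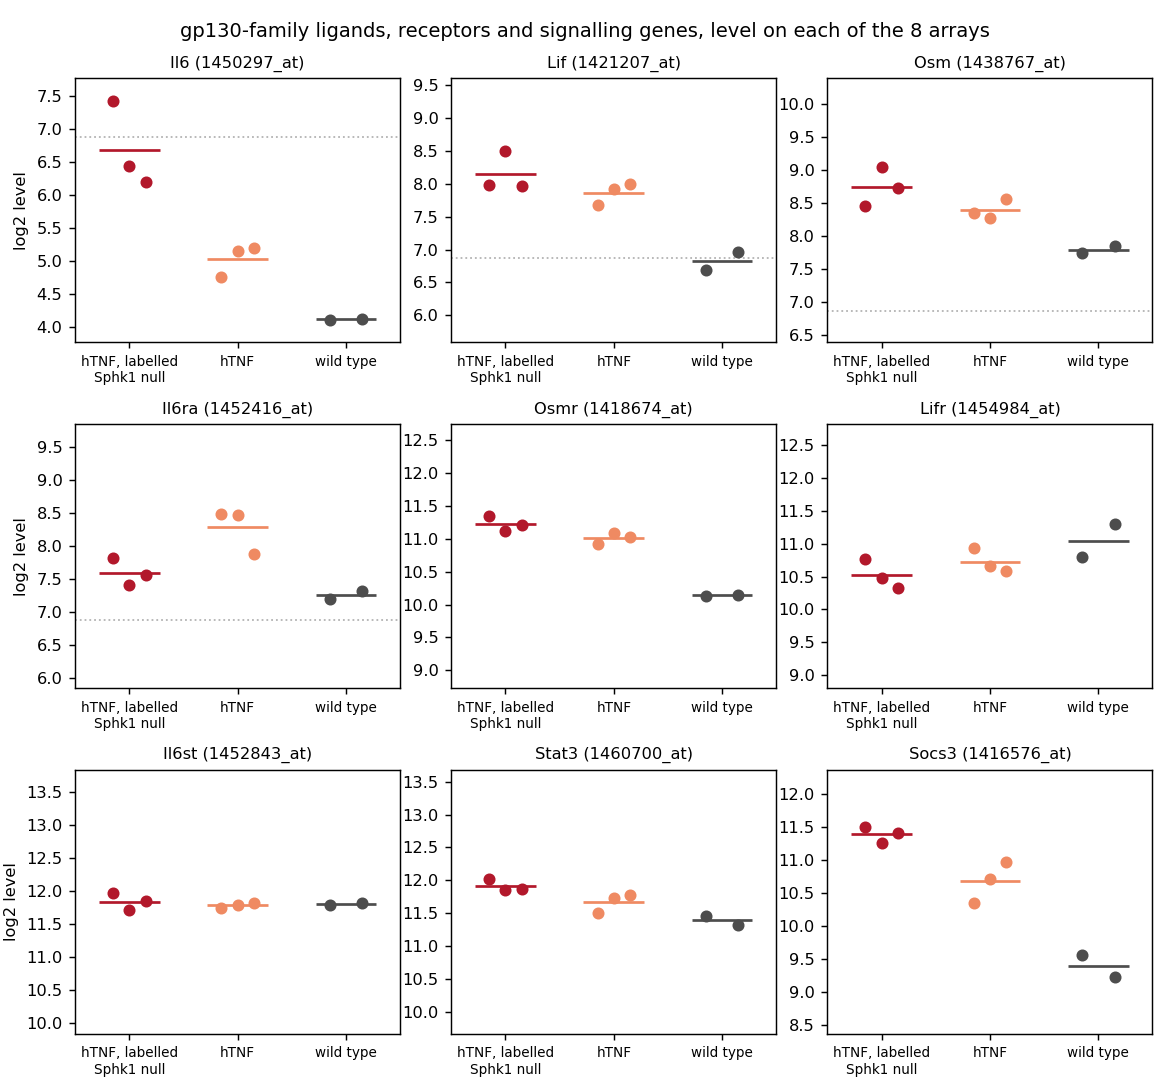
Log2 level of 9 member genes on each array by group, with a line at the group mean and a dotted line at the filter level of 6.87 where it falls in the range; each panel has its own vertical axis. In these probe sets, the brightest of each gene, every array labelled Sphk1 null of Il6, Socs3, Osmr and Stat3 lies above every hTNF array and these above wild type, and the Il6st ranges overlap in all 3 groups.

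Il6, the founding ligand of the family, was dim on every array of hTNF and wild-type joints. It read 7.43, 6.44 and 6.19 log2 in joints labelled Sphk1 null, 4.76, 5.14 and 5.19 in hTNF joints, and 4.10 and 4.12 in wild-type joints. The 3 groups did not overlap, and only 1 array, replicate 1 labelled Sphk1 null, lay above the filter level. In the fit without the filter, hTNF minus wild type was 0.92 ± 0.31 log2 (SE, 3 arrays against 2; limma adjusted p = 0.0706), which did not pass; 17.7% of the 45037 probe sets of that fit were called. An exact two-sided permutation test over the 5 arrays gave p = 0.1, the smallest p that this design allows. With an offset of 32 added before log2, which damps dim values, the difference was 0.40. It passed without replicate 1 labelled Sphk1 null (0.92, limma adjusted p = 0.00301) and with only the 2 groups fitted (0.92, limma adjusted p = 0.00572). Without the arrays of mixed sex-linked signal, which keeps wild-type replicate 1 alone in its group, the difference was 1.07.

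The sequence before the start of Il6 is shown because 3 of 4 motifs searched lie in it. The motifs were TTCNNNGAA (STAT), the kB motif of NF-kB (3 G, any 2 bases, 3 T, 2 C), TTGNGCAA (C/EBP) and TGANTCA (AP-1), read on both strands in the 250 bases before each RefSeq start of GRCm38.p6. Of 32851 such windows, 7.02% held the STAT motif, 1.41% the kB motif, 2.61% the C/EBP motif and 6.75% the AP-1 motif. For 9 of the 10 genes there were 11 windows, and Osm was not among these genes. A match describes letters and not a bound site. The Il6 window is chr5:30012864-30013113 on the plus strand, with its matches in capitals: AP-1 at 249 to 243, C/EBP at 128 to 121 and kB at 44 to 35 bases before the start.
Il6: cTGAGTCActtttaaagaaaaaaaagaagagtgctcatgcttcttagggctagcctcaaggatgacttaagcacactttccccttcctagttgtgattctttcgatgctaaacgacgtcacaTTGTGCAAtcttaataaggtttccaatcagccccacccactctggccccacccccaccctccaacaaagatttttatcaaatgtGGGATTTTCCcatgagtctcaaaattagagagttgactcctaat

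Lif, which signals through Lifr and gp130, read 7.98, 8.50 and 7.97 in joints labelled Sphk1 null, 7.67, 7.92 and 8.0 in hTNF joints, and 6.69 and 6.96 in wild-type joints. Every transgenic array was above both wild-type arrays. Lif rose in hTNF joints by 1.04 ± 0.19 log2, or 2.05-fold (SE; limma adjusted p = 0.00277). A second, dimmer Lif probe set, 1450160_at, lay below the filter and did not follow: it read 5.28 to 5.67 in joints labelled Sphk1 null, 5.17 to 5.35 in hTNF and 5.39 to 5.41 in wild type. The window before the Lif start, chr11:4257318-4257567 on the plus strand, held an AP-1 match at 228 to 222 bases and none of the other motifs.
Lif: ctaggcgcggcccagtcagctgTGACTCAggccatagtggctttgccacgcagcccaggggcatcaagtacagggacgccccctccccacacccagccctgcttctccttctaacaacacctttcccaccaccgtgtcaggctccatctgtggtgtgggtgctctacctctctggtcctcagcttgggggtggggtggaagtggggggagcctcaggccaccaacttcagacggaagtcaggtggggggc

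Osm, a ligand made mainly by myeloid cells and T cells, read 8.46, 9.05 and 8.74 in joints labelled Sphk1 null, 8.36, 8.28 and 8.57 in hTNF joints, and 7.74 and 7.85 in wild-type joints. Both transgenic groups lay above wild type, and they overlapped each other. Osm rose by 0.61 ± 0.17 log2, or 1.52-fold, in hTNF joints (SE; limma adjusted p = 0.0237). That call was the least secure of the 5: the adjusted p was 0.138 without wild-type replicate 1, 0.0700 without wild-type replicate 2, 0.0830 without hTNF replicate 3 and 0.0674 with quantile normalization.

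Among the receptor chains, Osmr pairs with gp130 to bind oncostatin M. It read 11.34, 11.12 and 11.21 in joints labelled Sphk1 null, 10.92, 11.09 and 11.03 in hTNF joints, and 10.13 and 10.15 in wild-type joints. The 3 groups did not overlap. Osmr rose in hTNF joints by 0.87 ± 0.10 log2, or 1.83-fold (SE; limma adjusted p = 0.000275). A second probe set, 1418675_at, rose as well, by 0.99 ± 0.21 (limma adjusted p = 0.00640). The third, 1459217_at, lay below the filter at 4.45 to 5.04 on all arrays. The Osmr window of 250 bases held none of the 4 motifs.

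Il6ra, the chain that binds interleukin 6, was highest in hTNF joints. It read 7.81, 7.41 and 7.56 in joints labelled Sphk1 null, 8.49, 8.47 and 7.88 in hTNF joints, and 7.20 and 7.31 in wild-type joints. Both other groups lay below all 3 hTNF arrays. Il6ra rose by 1.03 ± 0.20 log2, or 2.03-fold, in hTNF against wild type (SE; limma adjusted p = 0.00395), and by 0.57 as the mean of its 2 probe sets (adjusted p = 0.0102). Its other probe set, 1422270_a_at, did not follow, with a difference of 0.12 ± 0.13 (limma adjusted p = 0.549) and levels of 6.96 to 7.36 on all 8 arrays.

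Il6st, which codes for gp130 itself, did not pass in any of its 4 probe sets in hTNF against wild type. The brightest read 11.96, 11.70 and 11.84 in joints labelled Sphk1 null, 11.74, 11.78 and 11.81 in hTNF joints, and 11.78 and 11.82 in wild-type joints. These ranges overlapped, and the difference between hTNF and wild type was -0.02 ± 0.09 log2 (SE; limma adjusted p = 0.886). The probe set 1437303_at differed more, at 10.69, 11.23 and 10.51 in hTNF joints and 10.15 and 10.05 in wild-type joints. Its difference of 0.71 ± 0.26 did not pass (limma adjusted p = 0.0666), although the groups did not overlap; it passed with quantile normalization (adjusted p = 0.0385), with only the 2 groups fitted (0.0439), and without replicate 1 (0.0472) or 2 (0.0274) labelled Sphk1 null.

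Lifr, the signalling partner of gp130 for Lif, went in different directions by probe set. The brightest, 1454984_at, read 10.76, 10.48 and 10.33 in joints labelled Sphk1 null, 10.94, 10.66 and 10.58 in hTNF joints, and 10.79 and 11.29 in wild-type joints. Its hTNF and wild-type ranges overlapped, with a difference of -0.31 ± 0.18 log2 (SE; limma adjusted p = 0.228). The dimmer 1425107_a_at was 0.30 ± 0.12 higher in hTNF, with an adjusted p of 0.0723 that fell to 0.0422 without replicate 1 labelled Sphk1 null.

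Stat3, the transcription factor of the pathway, also depended on the probe set. The brightest, 1460700_at, read 12.02, 11.85 and 11.87 in joints labelled Sphk1 null, 11.50, 11.74 and 11.78 in hTNF joints, and 11.46 and 11.33 in wild-type joints. All hTNF values lay above wild type, but the difference of 0.28 ± 0.11 log2 did not pass (SE; limma adjusted p = 0.0796). It did pass with the mean of all 4 Stat3 probe sets (0.33, adjusted p = 0.0346), with quantile normalization (0.30, adjusted p = 0.0473) and without hTNF replicate 1 (0.37, adjusted p = 0.0254). Without the 3 arrays of mixed sex-linked signal, which keeps wild-type replicate 1 alone in its group, the difference was 0.30. The next probe set, 1426587_a_at, read 11.76, 11.25 and 11.48 in joints labelled Sphk1 null, 11.60, 11.52 and 11.46 in hTNF joints, and 10.63 and 10.46 in wild-type joints. It rose by 0.98 ± 0.14, or 1.97-fold (limma adjusted p = 0.000827). The dimmer Stat3 probe sets 1459961_a_at and 1424272_at differed by 0.10 ± 0.17 and -0.03 ± 0.13 and did not pass (limma adjusted p = 0.722 and 0.898).

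Socs3, the inhibitor that STAT3 induces, had the largest rise of the tested member genes, and its 3 probe sets moved together. The brightest, 1416576_at, read 11.50, 11.26 and 11.41 in joints labelled Sphk1 null, 10.35, 10.70 and 10.96 in hTNF joints, and 9.55 and 9.22 in wild-type joints. The 3 groups did not overlap on any Socs3 probe set. In hTNF joints Socs3 rose by 1.29 ± 0.18 log2, or 2.44-fold (SE; limma adjusted p = 0.000660), and its other probe sets by 1.31 ± 0.15 and 1.49 ± 0.17 (limma adjusted p = 0.000274 for both). By absolute difference it ranked 901 of 12362 genes. The window before its RefSeq start, chr11:117969367-117969616 on the minus strand, is shown because it holds a STAT match, at 154 to 146 bases. It was the only 1 of the 11 member windows with that motif, where 7.02% of all windows held it.
Socs3: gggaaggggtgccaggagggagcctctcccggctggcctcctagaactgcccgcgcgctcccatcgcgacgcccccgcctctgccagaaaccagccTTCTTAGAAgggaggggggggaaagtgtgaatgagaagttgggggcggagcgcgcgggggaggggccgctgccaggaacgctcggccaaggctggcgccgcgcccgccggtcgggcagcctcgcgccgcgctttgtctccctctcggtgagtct

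**Figure D3:**
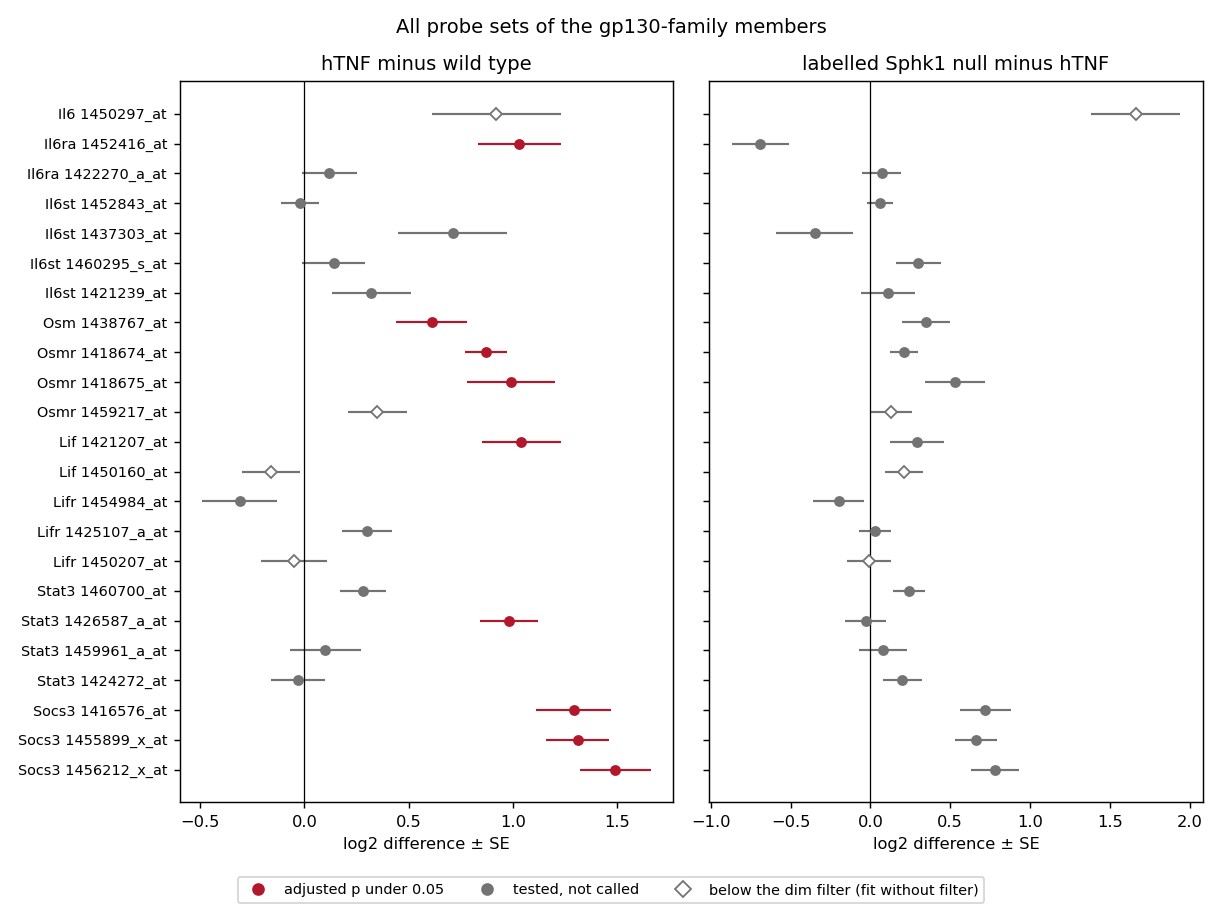
Log2 difference with its standard error (horizontal axis) for all 23 member probe sets, hTNF minus wild type on the left and labelled Sphk1 null minus hTNF on the right. On the left 9 probe sets are called, all higher; on the right none is called, with Il6 and the 3 Socs3 probe sets farthest to the right and Il6ra farthest to the left.

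The joints labelled Sphk1 null against hTNF joints ask whether the Sphk1 genotype goes with a difference in the pathway under the same transgene. Over all tested genes limma called 2, or 0.0162%, all of them higher and 0% lower, and it called 0.00829% of all tested probe sets. Sphk1 itself was 1 of the 2, at 1.53 log2 higher (limma adjusted p = 0.0164). None of the 8 tested member genes was called. At an unadjusted p under 0.05 there were 4 of the 8, Socs3, Osmr and Stat3 higher and Il6ra lower, where 6.27% of all tested genes reached it and 2.39% did so with a higher value. The ranges of the groups did not overlap upward for 3 genes, Socs3, Osmr and Stat3, against 5.1% of all genes, and downward for 1, Il6ra, against 4.91%. The members' median difference was 0.22 log2, against -0.02 over all genes. The macrophage marker mean was 11.46 to 11.70 in joints labelled Sphk1 null and 11.31 to 11.52 in hTNF. The fibroblast mean was higher without overlap in joints labelled Sphk1 null, at 12.82 to 12.86 against 12.73 to 12.81. Lower without overlap were the means of cartilage (10.01 to 10.11 against 10.17 to 10.45), adipocyte (8.27 to 8.65 against 8.74 to 8.86) and B and plasma cell markers (8.65 to 8.80 against 8.82 to 9.15). The part of cell content in these values was not tested.

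For Il6 all 3 arrays labelled Sphk1 null were above all 3 hTNF arrays. The difference was 1.66 ± 0.28 on the deposited log2 scale (SE, 3 against 3; 95% interval 1.04 to 2.27), but all hTNF values and 2 of the 3 labelled Sphk1 null lay below the filter level of 6.87, so its size is not exact and no fold is given. The limma adjusted p of 0.436 did not pass (unadjusted p = 0.000145), where 0.00444% of probe sets were called. An exact two-sided permutation test over the 6 arrays gave p = 0.1, again the smallest possible. Replicate 1 labelled Sphk1 null, one of the arrays of mixed sex-linked signal, was the highest. Without it the difference was 1.29 (adjusted p = 0.0842), and with an offset of 32 before log2 it was 1.08. The adjusted p ranged from 0.0842 to 0.999 over all alternatives.

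Socs3 was the next highest among the members. Its 3 probe sets were 0.72 ± 0.16, 0.66 ± 0.13 and 0.78 ± 0.15 log2 higher in joints labelled Sphk1 null (SE, 3 against 3), with limma adjusted p of 0.449, 0.409 and 0.377. The 95% interval of the brightest was 0.36 to 1.08, and it ranked 71 of 12362 genes by absolute difference. Socs3 lies on chromosome 11, as Sphk1 does, with 25 protein-coding genes between them in the RefSeq gene table. Whether this neighbourhood has a part in the Socs3 difference was not tested. The members Lif, Osm and Stat3 are on chromosome 11 as well, and a part of that position in their differences was not tested either.

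The brightest probe sets of the other members differed by less than that of Socs3 between the transgenic groups. Il6ra differed by -0.69 ± 0.18 log2, with a 95% interval of -1.09 to -0.28 (limma adjusted p = 0.554), and by -0.31 as the mean of its 2 probe sets, while its second probe set differed by 0.07 ± 0.12. Osm differed by 0.35 ± 0.15 (95% interval 0.00 to 0.70), Lif by 0.29 ± 0.17 (-0.10 to 0.67), Stat3 by 0.24 ± 0.10 (0.02 to 0.46) and Osmr by 0.21 ± 0.09 (0.01 to 0.41). The next probe sets of the last pair overlapped between the groups, 1426587_a_at of Stat3 at -0.03 ± 0.13 and 1418675_at of Osmr at 0.53 ± 0.19. Il6st differed by 0.06 ± 0.08, with a 95% interval of -0.13 to 0.24, so a rise of more than 0.24 log2 in its brightest probe set lies outside the interval. Lifr differed by -0.20 ± 0.16 (-0.57 to 0.16). None of the 19 tested member probe sets passed here, with limma adjusted p of 0.377 to 0.971.

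Joints labelled Sphk1 null against wild type share the wild-type arrays with the first comparison, so the values of both are given side by side and not as separate evidence. In joints labelled Sphk1 null 5 of 8 tested member genes rose and 1 fell, where 43% of all tested genes were called, 19.1% higher and 23.8% lower. All arrays lay above wild type for 6 of the 8, against 28.3% of all genes. Socs3 differed by 2.01 ± 0.18 log2 here and by 1.29 in hTNF, Lif by 1.33 ± 0.19 and 1.04, Osmr by 1.08 ± 0.10 and 0.87, and Osm by 0.96 ± 0.17 and 0.61, all with limma adjusted p of at most 0.00205 in joints labelled Sphk1 null. Stat3 rose by 0.52 ± 0.11 (limma adjusted p = 0.00453). Il6ra did not pass (0.34 ± 0.20; limma adjusted p = 0.220), nor did the brightest Il6st probe set (0.03 ± 0.09; limma adjusted p = 0.810). Another Il6st probe set, 1460295_s_at, differed by 0.44 ± 0.15 (limma adjusted p = 0.0463), a call that was lost without wild-type replicate 1 (0.59, adjusted p = 0.0503) or 2 (0.29, 0.293), without replicate 1 (0.0910) or 3 (0.125) labelled Sphk1 null, without hTNF replicate 2 (0.0652) or 3 (0.0501), and without the mixed arrays (0.25, 0.194). It was also lost without the filter (adjusted p = 0.0689), without the trend (0.0538), with only the 2 groups fitted (0.0511) and with the keratinocyte covariate (0.0574). Il6, in the fit without the filter, rose by 2.58 ± 0.31 on the deposited log2 scale (limma adjusted p = 0.000270, where 21.3% of probe sets were called). With the offset of 32 it was 1.47 (adjusted p = 0.00138), and since both wild-type arrays lay far below the filter level the size is not exact. Its adjusted p stayed between 7.44e-05 and 0.00477 over all alternatives.

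Lifr was the member that fell. Its brightest probe set differed by -0.52 ± 0.18 (limma adjusted p = 0.0490), while 1425107_a_at rose by 0.33 ± 0.12 (limma adjusted p = 0.0453). The fall did not pass without wild-type replicate 2 (-0.27, adjusted p = 0.369), without replicate 2 (-0.49, 0.102) or 3 (-0.42, 0.148) labelled Sphk1 null, without hTNF replicate 2 (0.0647) or 3 (0.0611), without the filter (0.0713), without the trend (0.0601), with only the 2 groups fitted (0.0643), or with the mean of the Lifr probe sets (-0.09, 0.604). The rise of 1425107_a_at did not pass without wild-type replicate 1 (adjusted p = 0.171) or 2 (0.138), without replicate 1 (0.0546) or 3 (0.0975) labelled Sphk1 null, without hTNF replicate 1 (0.0642), 2 (0.0702) or 3 (0.0764), without the mixed arrays (0.142), without the filter (0.0816), with only the 2 groups (0.118) or with the keratinocyte covariate (0.0668). No direction can be given for Lifr from these probe sets.

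Other ligands and receptor chains of the gp130 family were less complete on the array. Of 8 further ligands, 3 were tested. Ebi3, a subunit that pairs with the Il27 protein to form a cytokine, rose in hTNF joints by 1.78 ± 0.25 log2 (limma adjusted p = 0.000664), and the ligand cardiotrophin 1, Ctf1, fell by 1.19 on the log2 scale (SE 0.14; limma adjusted p = 0.000299). Ctf1 read 7.69, 7.39 and 7.60 in joints labelled Sphk1 null, 7.73, 7.79 and 7.84 in hTNF joints, and 9.14 and 8.82 in wild-type joints, so both transgenic groups lay below wild type. Clcf1, a ligand of the CNTF receptor, differed by -0.02 ± 0.16. The list's median difference was -0.02. Among receptor chains, Il27ra rose by 0.46 ± 0.14 (limma adjusted p = 0.0363) and Cntfr differed by 0.08 ± 0.13. The probe sets of Il11, Il31 and Il31ra lay below the filter.

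Of 9 tested JAK, STAT and adaptor genes downstream of the receptor, 3 rose and 3 fell in hTNF joints, with a median of 0.38 log2. Over all tested genes 16.5% were called higher and 19.6% lower, with a median of -0.02. Jak2, a receptor-bound kinase, rose by 1.14 ± 0.11, Stat5a by 0.53 ± 0.13 and Tyk2 by 0.52 ± 0.11 (limma adjusted p = 0.000136, 0.0113 and 0.00596). Stat5b fell by 0.76 (SE 0.11), and so did 2 genes that link gp130 to the MAP kinase branch, the scaffold Gab1 by 0.73 (SE 0.10) and the phosphatase SHP2, Ptpn11, by 0.41 (SE 0.12; limma adjusted p = 0.0237). Jak1, the main kinase bound to gp130, differed by 0.25 ± 0.14 (limma adjusted p = 0.207). Grb2, an adaptor that binds SHP2, did not pass in hTNF (0.42 ± 0.19, limma adjusted p = 0.119). It lay without overlap above hTNF in joints labelled Sphk1 null, by 0.64 ± 0.17 (limma adjusted p = 0.554). Grb2 lies on chromosome 11, as Sphk1 does, and whether this position has a part in its difference was not tested.

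Inhibitors other than Socs3 rose in 4 of 7 cases and fell in none in hTNF joints, where 16.5% of all tested genes were called higher and 19.6% lower, with a median of 0.50 log2, against -0.02 over all genes. The phosphatase SHP1, Ptpn6, rose by 1.04 ± 0.21, the JAK inhibitor Socs1 by 0.80 ± 0.15, Cish by 0.78 ± 0.21 and the phosphatase Ptpn2 by 0.50 ± 0.13. Pias3, an inhibitor of STAT3, differed by -0.01 ± 0.15. Between the transgenic groups Socs1 and Socs3 had opposite signs. Socs1 read 7.79, 7.37 and 7.60 in joints labelled Sphk1 null, 8.03, 8.11 and 7.90 in hTNF joints, and 7.11 and 7.32 in wild-type joints. Its difference of -0.43 ± 0.14 did not pass (limma adjusted p = 0.605). The proteases that release the interleukin 6 receptor from cells both rose in hTNF joints, Adam17 by 1.49 ± 0.13 (2.80-fold; limma adjusted p = 7.61e-05) and Adam10 by 0.49 ± 0.12 (limma adjusted p = 0.0119).

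**Figure D4:**
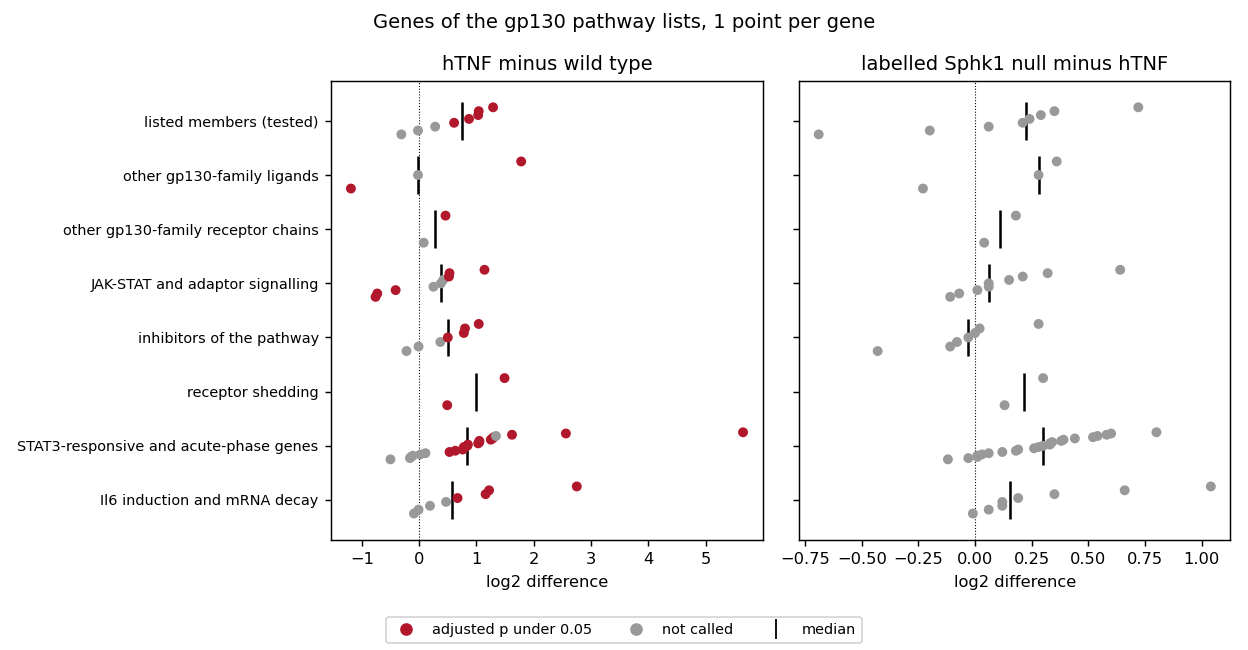
Log2 difference of each tested gene of the member and pathway lists (horizontal axis; vertical bar, median of the list), hTNF minus wild type on the left and labelled Sphk1 null minus hTNF on the right. On the left 16 of 23 STAT3-responsive genes are called higher and none lower; on the right no gene is called, and the median of that list lies at 0.30.

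Genes that STAT3 or the acute-phase response induces were mostly higher in hTNF joints. Of 23 such genes 16 rose and none fell, with a median of 0.84 log2, against the 16.5% of all tested genes that were called higher. The list was chosen with earlier results of these data known, so this share is a description. Saa3, an acute-phase protein, rose by 5.65 ± 0.26 and the protease inhibitor Timp1 by 2.56 ± 0.12 (limma adjusted p = 4.15e-06 for both). Bcl3, a co-regulator of NF-kB, rose by 1.62 ± 0.20 and Junb, an immediate early factor, by 1.3 ± 0.19. Not all of the list moved: Serpina3n differed by 0.11 ± 0.20, Steap4 by 0.02 ± 0.13 and Lrg1 by -0.50 ± 0.26. Lcn2, which neutrophils also hold, read 10.03 to 10.48 in hTNF joints but 7.37 and 10.43 in replicates 1 and 2 of wild type, which also differed in neutrophil markers, and did not pass (1.34 ± 0.71; limma adjusted p = 0.187). Many of these genes are known to respond to TNF as well.

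Between the transgenic groups none of the 23 was called, and their median was 0.30 log2, against -0.02 over all genes. In 7 of them every array labelled Sphk1 null was above every hTNF array, where 5.1% of all genes did so. The largest of these differences were in Nfil3, a transcription factor, at 0.80 ± 0.18 (limma adjusted p = 0.453), and Cebpb, a C/EBP factor known to act on Il6, at 0.60 ± 0.14 (limma adjusted p = 0.453). Cebpb read 12.37, 11.86 and 12.09 in joints labelled Sphk1 null, 11.35, 11.64 and 11.54 in hTNF joints, and 10.56 and 10.37 in wild-type joints. Nfil3 did not differ between hTNF and wild type beyond its error (-0.14 ± 0.20; limma adjusted p = 0.666).

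Among 8 genes that induce Il6 or act on the decay of its mRNA, 4 rose in hTNF joints and none fell, where 16.5% of all tested genes were called higher and 19.6% lower. Il1b, a strong inducer of Il6, rose by 2.75 ± 0.25 log2 and the probe set of Tnf by 1.22 ± 0.14. Whether that Tnf probe set also reads the human transgene was not tested. Nfkbiz, a nuclear co-activator of Il6, rose by 1.16 ± 0.17, and Zc3h12a, the nuclease Regnase-1 that degrades Il6 mRNA, by 0.67 ± 0.14. Il17a differed by -0.01 ± 0.13, and Arid5a, which stabilises Il6 mRNA, by -0.09 ± 0.13. Between the transgenic groups Il1b had the largest difference of this list. It read 12.20, 12.11 and 11.65 in joints labelled Sphk1 null, 10.47, 10.98 and 11.40 in hTNF joints, and 8.10 and 8.30 in wild-type joints. The 3 groups did not overlap, but 1.04 ± 0.23 did not pass (limma adjusted p = 0.438), nor did Arid5a at 0.35 ± 0.12 (limma adjusted p = 0.611). Zfp36, whose protein tristetraprolin promotes mRNA decay, differed by 0.66 ± 0.21 between the transgenic groups with overlapping ranges (limma adjusted p = 0.607) and by 0.47 ± 0.24 between hTNF and wild type (limma adjusted p = 0.166).

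The genes whose level most resembled a member over the 8 arrays were named by Pearson correlation. The points share 3 groups and 8 arrays, so these values describe the arrays and carry no p. Il6 was most like Sgk1 (r = 0.986), Klf13 (0.986) and Rab11fip1 (0.979). Osmr was most like the syndecan Sdc1 (r = 0.998), Phtf1 (0.997) and Erp29 (0.997). Socs3 was most like Dnajb11 (r = 0.990), Fbln2 (0.988) and Epb41l3 (0.988).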

How the data were processed

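The authors deposited log2 values, 1 per probe set and array and rounded to 2 decimals, for 45101 probe sets on 8 arrays. RNA was taken up in TRIzol, cleaned with a column kit and labelled with biotin as cRNA, per the labels' protocols. The submitters' processing notes name Affymetrix Expression Console, RMA and MAS5, without saying which made these values. Array medians lay between 6.84 and 6.89 log2, so a difference in total RNA is not visible in them. Precision is limited by the number of arrays: the median standard error was 0.15 log2 for hTNF against wild type and 0.13 between the transgenic groups.

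Gene names came from GEO's platform annotation and were brought up to date by gene identifier in the RefSeq table of GRCm38.p6. With 64 control probe sets and the dim ones left out, limma 3.58.1 (R 4.3.3) estimated 1 mean per group with an intensity trend and 5 residual degrees of freedom; the steps were tested on simulated data. The members and all lists were chosen with earlier results of these data known. By rule, the text names all members, up to 4 genes of each pathway list with the largest called change in hTNF against wild type, lists of under 5 genes in full, and the 3 genes most correlated with Il6, Osmr and Socs3. Other list genes named (Jak1, Tyk2, Ptpn11, Grb2, Pias3, Clcf1, Lrg1, Lcn2, Serpina3n, Steap4, Nfil3, Cebpb, Il17a, Arid5a and Zfp36), and the alternatives for Il6 without the filter and for further probe sets, were chosen after their values were seen. Alternatives were no filter, quantile normalization, an offset of 32 before log2, no trend, only the 2 groups compared, each array left out, a replicate block, keratinocyte level as covariate, the arrays of mixed sex-linked signal left out, and the mean of a gene's probe sets.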

Additional observations from a re-analysis of the deposited data

How the results depend on the processing

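The number of member genes called in hTNF against wild type was 4 to 6 over all alternatives and single arrays left out, beside 5 in the main fit. In joints labelled Sphk1 null against wild type it was 5 to 6, beside 6. It was 0 in joints labelled Sphk1 null against hTNF under each of them. Only the fit without the filter counted Il6 as well. There, in joints labelled Sphk1 null against wild type, Il6 was called and Lifr was not (limma adjusted p = 0.000270 and 0.0713). Socs3, Lif, Il6ra and Osmr kept their calls in hTNF against wild type throughout (highest adjusted p 0.00717, 0.0341, 0.0377 and 0.00407 in limma). The signs that turned belonged to differences near 0 that were not called. For Il6st, hTNF minus wild type was 0 with quantile normalization, 0.01 without the arrays of mixed sex-linked signal and 0.29 with the mean of its probe sets, and that of its 1460295_s_at was between -0.01 and 0.29 with single arrays left out. Labelled Sphk1 null minus hTNF was -0.03 without the mixed arrays and between -0.01 and 0.12 with single arrays left out, and labelled Sphk1 null minus wild type was -0.01 without the mixed arrays and between -0.03 and 0.10 with single arrays left out. For labelled Sphk1 null minus hTNF, 1425107_a_at of Lifr was -0.04 without the mixed arrays and between 0 and 0.08 with single arrays left out, and 1426587_a_at of Stat3 was between -0.16 and 0.09 with single arrays left out. Same-numbered arrays of different groups correlated at -0.17 to 0.27 in their deviations from the group means. Of the 8 arrays, 5 correlated best with an array of their own number. The labels do not say that equal numbers mean pairs, so the main fit left the numbers out. Whether same-numbered arrays share a preparation cannot be told from these values. With the replicate block 5, 0 and 5 members were called in the 3 comparisons, and in joints labelled Sphk1 null against wild type the calls of Lifr (-0.43, adjusted p = 0.114), its 1425107_a_at (0.35, adjusted p = 0.115) and 1460295_s_at of Il6st (0.38, adjusted p = 0.119) were lost; the block changed no other call. With 2 to 3 arrays a group, dim genes such as Il6 are limited by background.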
